A study of Mus musculus with 12 samples.

Results

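Thy-1- cells are the fraction of reprogramming fibroblasts that has lost Thy-1, a surface glycoprotein of fibroblasts, and their mRNA was compared between day 9 (D9T-) and day 6 (D6T-) after induction. The comparison holds the 11923 of 24098 genes of the deposited table that reached an FPKM (fragments per kilobase of transcript, scaled to the size of the library) of at least 1 in either library. Both libraries came from mouse embryonic fibroblasts (MEFs) of mid-gestation embryos that carried an EGFP cassette behind the coding sequence of Pou5f1, the gene of Oct4. The MEFs were infected with pMXs retroviruses, a vector active in many cell types, for the 4 factors abbreviated OSKM (Oct4, Sox2, Klf4, c-Myc) and were grown without feeder cells in FF medium, which holds serum replacement, LIF, ascorbic acid, bFGF, the GSK3 inhibitor CHIR99021 and N-2 supplement. They were sorted with an antibody to Thy-1, and the negative fraction was sequenced once on each day. The study treats Thy-1- cells of these days, followed by SSEA-1+ cells of days 12 and 16 (D12S+ and D16S+), as the successful route, and the Thy-1+ fractions of the same days (D6T+ and D9T+) as the unsuccessful one. The series also holds unsorted cells of days 0 and 3 (D0 and D3), established induced pluripotent stem cells (iPSCs) and D3 embryonic stem cells. Since each condition had 1 library, no difference below has a replicate check, and no test across samples was possible.

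OSKM reprogramming of fibroblasts passes through an early loss of the fibroblast programme and a gain of epithelial features, called the mesenchymal-to-epithelial transition, before the endogenous pluripotency network becomes active. Oct4, Sox2 and Nanog are transcription factors that bind each other's genes and hold that network on. Thy-1 is lost before SSEA-1, a carbohydrate of pluripotent cells, appears. A sort on Thy-1 alone takes cells after the first event, whether or not SSEA-1 has appeared.

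Values were analysed as log2(FPKM + 1). A gene is said below to have risen or fallen where D9T- differed from D6T- by at least 2-fold on this scale, that is by at least 1, and differences are D9T- minus D6T- unless stated. A gene at a low FPKM cannot reach 2-fold easily on this scale, so changes of low genes are understated. In bulk RNA of a sorted fraction, a change in the share of cells that express a gene and a change in RNA per cell cannot be told apart.

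The sorting marker had the sign that the labels give. Thy1 (chromosome 9, 43851467 to 43856662, plus strand, mm9) was at 3.24 and 3.72 FPKM in D6T- and D9T-, against 477 FPKM in D6T+ and 491 FPKM in D9T+. Thy1 in the negative fraction thus amounted to 0.679% of its level in the positive fraction on day 6 and 0.759% on day 9. The total FPKM was 514910 in D6T- and 514938 in D9T-. From the steps between low FPKM values, D6T- was sequenced 1.43 times as deeply as D9T-, and absolute depth is unknown. The intervals that cuffdiff gave each FPKM had a median half-width of 100.1% of the FPKM in D6T- and 100.3% in D9T-, over genes of at least 10 FPKM. The interval of D9T- lay wholly above that of D6T- for 1 gene, the translation elongation factor gene Eef1a1, which went from 6982 to 8066 FPKM and is named after its values were seen. For 0 genes it lay wholly below, so that these intervals alone separated no rise or fall described below. The summed level of 8 epithelial markers was 129 FPKM in D6T- and 331 FPKM in D9T-, that of 8 pluripotency markers 4.85 and 143 FPKM, against 1712 and 3497 FPKM in iPSCs. That of 10 fibroblast markers was 439 and 380.0 FPKM, against 7317 FPKM in D0. In the Thy-1+ cells the epithelial sum went from 88.1 to 172 FPKM and the pluripotency sum from 2.37 to 30.7 FPKM. Just inside the 1 FPKM limit of the rule were Kcnk6 at 1.00 FPKM in D9T- and Fam151b at 1.00 FPKM in D6T-, and just outside it were Tmlhe at 0.9997 FPKM in D9T- and Ckm at 0.9997 FPKM in D6T-.

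Genes that rose outnumbered genes that fell. Of the 11923 genes, 717 rose (6.01%) and 161 fell (1.35%). At least 4-fold differences were seen upwards for 136 genes and downwards for 16. The bulk of genes moved little: 9602 genes (80.5%) lay within 1.5-fold, the median difference was -0.000491, and the 5th and 95th percentiles were -0.66 and 1.10. Among the risen genes, 238 were under 1 FPKM in D6T-, of which 17 were listed at 0. Among the fallen genes, 43 were under 1 FPKM in D9T-, of which 15 were listed at 0. Of the 10 genes listed at 0 in D9T- but at 10 FPKM or more in D6T-, 9 were microRNA, small nucleolar RNA or unnamed gene models or had a locus under 300 bases, for which FPKM is unreliable. The GC content of transcripts moved with the falls. Among genes with a known transcript, the 10% richest in GC held 3.47% fallen genes and a median difference of -0.11, against 0.52 to 1.48% fallen in the other 9 groups of that size. Risen genes made up 1.56% of the 10% poorest in GC and 9.04% of the group with the highest share, at 52.8 to 54.6% GC. The part of GC content in these counts was not tested, apart from the count after centring each group that the closing section gives.

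**Figure D1:**
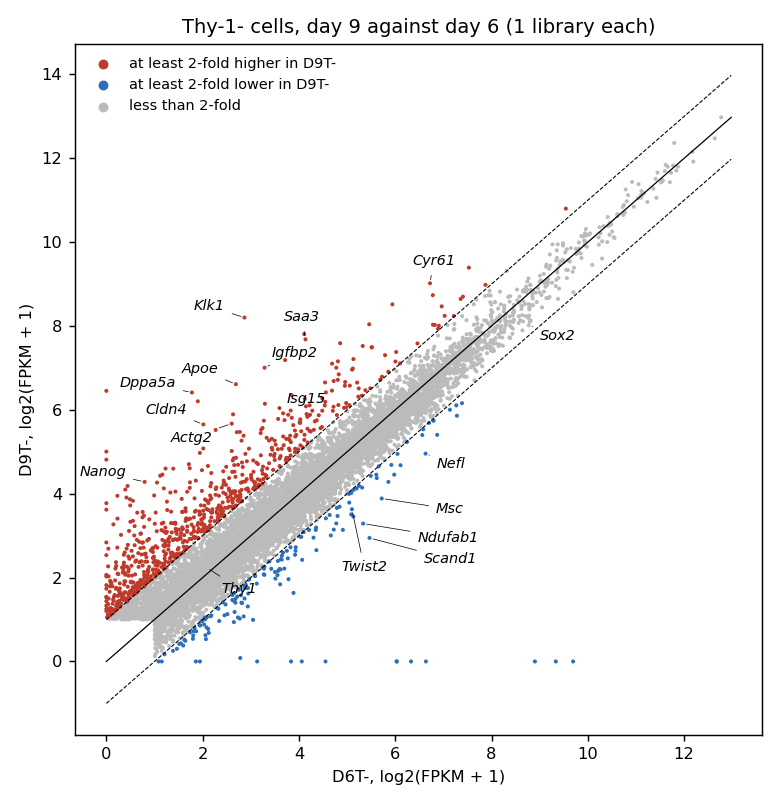
Level of each of the 11923 genes in D6T- (horizontal axis) and D9T- (vertical axis), as log2(FPKM + 1), 1 library each. Solid line, equal levels. Dashed lines, 2-fold. Red points (717 genes) are at least 2-fold higher in D9T- and blue points (161 genes) at least 2-fold lower. Klk1, Dppa5a and Nanog stand far above the band, Thy1 lies beside the line of equal levels, and blue points along the lower edge are listed at 0 in D9T-.

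To place both libraries between the start and the end of reprogramming, the genes that separate D0 from iPSCs by at least 4-fold were given a position, 0% at the level of D0 and 100% at that of iPSCs, on the log2 scale. From day 6 to day 9 the median position moved for genes higher in iPSCs, and it hardly changed for genes higher in fibroblasts. Over 877 genes higher in iPSCs, the median position was 14.9% in D6T- and 34.6% in D9T-. Over 1304 genes lower in iPSCs, it was 56.9% in D6T- and 57.6% in D9T-. These values share D0 and iPSCs as their end points. Single genes moved both ways: of 1155 kept genes at least 4-fold lower in iPSCs, 91 rose and 31 fell. Among all kept genes 6.01% rose and 1.35% fell. The libraries on either side set the frame: the genes gained were at 4.65% in D3 and 72.7% in D12S+, and the genes lost were at 33.9% in D3 and 64.6% in D12S+. In the Thy-1+ fraction, both groups were nearer to D0 than in the Thy-1- fraction of the same day. There the genes gained went from 4.56% to 20.2%, and the genes lost from 16.9% to 24.7%. With all genes at least 2-fold apart between D0 and iPSCs, the genes gained stood at 27.0% in D6T- and 35.7% in D9T-, a smaller step.

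**Figure D2:**
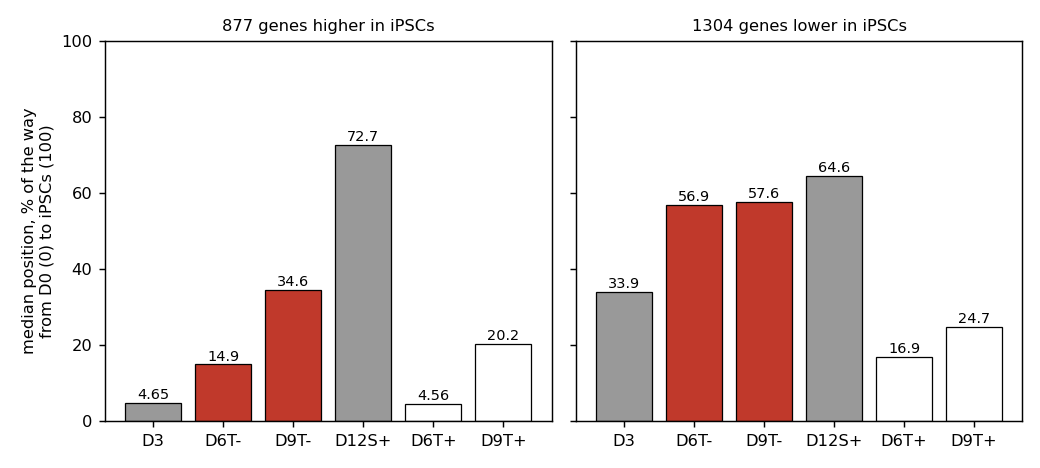
Median position of genes at least 4-fold apart between D0 (0%) and iPSCs (100%), for 877 genes higher in iPSCs (left) and 1304 genes lower in iPSCs (right), with 1 bar per library. Red bars are D6T- and D9T-, grey bars D3 and D12S+, and white bars the Thy-1+ fractions. On the left the red bars go from 14.9 to 34.6%, and on the right they stay at 56.9 and 57.6%.

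The genes that rose were more often genes of the later route than the kept genes in general, although many of them were not genes of iPSCs. Between D3 and D12S+, libraries that the comparison does not use, 563 of the risen genes (78.5%) were at least 2-fold higher in D12S+, against 14.7% of all kept genes. Between D0 and iPSCs, 226 of them (31.5%) were at least 4-fold higher in iPSCs, against a background of 5.25%, and 91 (12.7%) were at least 4-fold lower, against 9.69%. The other 400 were less than 4-fold apart between these end points, and 391 of the risen genes (54.5%) had a higher FPKM in D9T- than in either end point, against 28.9% of all kept genes. That last share uses D9T- itself and is given as a description. Of the fallen genes, 99 (61.5%) were at least 2-fold lower in D12S+ than in D3, against 11.2%.

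Of 24 pluripotency transcription factor genes, 15 were kept, and the other 9 were under 1 FPKM in both libraries. Of the kept genes, 8 rose and 0 fell, with a median difference of 1.08 against -0.000491 over all kept genes. Since a gene near 0 on day 6 was kept only through its level on day 9, the median over all 24 without the limit, 0.71, stands beside it. In the Thy-1+ cells 8 of the same 15 genes rose, with a median of 1.02, and 7 rose in both fractions. Nanog (chromosome 6, 122657507 to 122664651, plus strand, mm9) was at 0.735 and 18.5 FPKM in D6T- and D9T-, with 78.2 FPKM in D12S+ and 143 FPKM in iPSCs. Esrrb, an orphan nuclear receptor of the naive network, went from 0.174 to 9.61 FPKM, and Utf1, a chromatin-bound factor of embryonic stem cells, from 0.467 to 9.22 FPKM. All 3 were under 1 FPKM on day 6 and remained far below iPSCs on day 9. In iPSCs Esrrb was at 165 FPKM and Utf1 at 439 FPKM. Smaller rises were those of Mycn (0.288 to 4.13 FPKM), Tfcp2l1 (0.780 to 4.61 FPKM), Sox15, Sall1 and Sall4 (5.12 to 11.97 FPKM). Klf2 and Klf5 were higher by 0.60 and 0.59 without reaching 2-fold. Zfp42, the gene of Rex1, was barely above the limit at 1.07 FPKM in D9T-. Nr0b1 (Dax1), Zfp296 and Tbx3 differed by -0.82, -0.57 and -0.45, and of these Nr0b1 was already at 20.9 FPKM in D6T-.

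The promoter of Nanog is shown because it holds the composite Oct4-Sox2 element, a Sox and an octamer motif joined, on which both factors bind side by side. Among the first promoter windows of 27025 genes in RefSeq (GRCm38.p6, 250 bases before to 50 after the gene start, both strands), an exact match was found in 1, that of Nanog. The stretch below lies at chr6:122707374-122707467 of GRCm38.p6, plus strand, 5′ to 3′, with the element, which lies here on the opposite strand, in capitals. It begins 75 bases before the gene start.
Nanog promoter: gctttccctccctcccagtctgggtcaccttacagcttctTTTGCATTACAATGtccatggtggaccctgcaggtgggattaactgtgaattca

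Of 36 other kept pluripotency-associated genes, 22 rose and 0 fell, with a median of 1.17, against 15 rises and 0.88 in the Thy-1+ cells. The largest rise was that of Dppa5a, an RNA-binding protein gene of the embryonic germ line and stem cells, which went from 2.43 to 84.3 FPKM and reached 1365 FPKM in D12S+. Tdgf1, the Nodal co-receptor Cripto, went from 0.314 to 16.1 FPKM. Apoe, an apolipoprotein, went from 5.45 to 96.9 FPKM, and Slc2a3, a neuronal and embryonic glucose transporter, from 8.80 to 69.8 FPKM. The Nodal ligand and its antagonists rose from low levels: Nodal went from 0.438 to 2.69 FPKM, Lefty1 from 1.70 to 8.91 FPKM and Lefty2 from 0.292 to 2.57 FPKM. Gdf3, a TGF-beta family ligand, went from 5.47 to 28.01 FPKM, and Alpl, the alkaline phosphatase used to stain pluripotent colonies, from 6.13 to 23.9 FPKM. Dppa4, Dppa3 and Fgf4 ended at 1.37, 1.02 and 3.79 FPKM, against 101, 17.9 and 45.4 FPKM in iPSCs. Tdh, the threonine dehydrogenase of embryonic stem cells, and L1td1, an RNA-binding protein gene, were already at 50.5 and 42.4 FPKM in D6T- and differed by 0.74 and 0.73. Of germline genes that depend on promoter methylation, 4 of 22 were kept, and 2 rose, among them Piwil2, a PIWI protein gene (0.424 to 2.72 FPKM). The median of the 4 was 0.999, and that of all 22 without the limit was 0.

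The 4 reprogramming factor genes stayed within 2-fold, at high levels that include any retroviral reads. Pou5f1 was at 1935 and 2769 FPKM in D6T- and D9T-, Klf4 at 587 and 658 FPKM, and Myc at 542 and 605 FPKM. Sox2 was lower on day 9, at 436 and 258 FPKM. In the Thy-1+ fraction all 4 genes were higher on day 9, 3 of them by at least 2-fold. The median was 1.18 there, against 0.16 in the Thy-1- cells. Their summed level went from 1212 to 2936 FPKM in the Thy-1+ cells and from 3500 to 4290 FPKM in the Thy-1- cells. Sox2, short of 2-fold, was at 181 and 301 FPKM in D6T+ and D9T+.

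Of 28 kept epithelial junction genes, 16 rose and 0 fell, with a median of 1.11, against 7 rises and 0.59 in the Thy-1+ cells. The claudins, which seal tight junctions, led: Cldn4 (chromosome 5, 135420996 to 135422804, minus strand, mm9) went from 3.04 to 49.3 FPKM, Cldn7 from 0.718 to 10.1 FPKM and Cldn6 from 0.693 to 6.16 FPKM. Epcam, a surface adhesion protein of epithelia and stem cells, went from 13.4 to 55.2 FPKM, and Cdh1, the adherens junction protein E-cadherin, from 6.05 to 25.8 FPKM. In iPSCs Cdh1 stood at 203 FPKM and Epcam at 79.3 FPKM, so that Cdh1 was at a lower share of its iPSC level than Epcam. The desmosome genes were uneven. Dsg2 (0.735 to 4.90 FPKM), Pkp3 (3.35 to 12.7 FPKM) and Ppl rose, Dsp was at 40.7 and 55.6 FPKM in D6T- and D9T-, and Pkp2 was lower, at 20.5 and 9.91 FPKM. The gap junction gene Gjb5 rose by 1.13. Of 19 regulators of epithelial identity, 12 rose and 0 fell, with a median of 1.07, against 11 rises and 1.15 in the Thy-1+ cells. Tfap2c, a transcription factor of trophectoderm and germ cells, went from 0.681 to 9.83 FPKM, Esrp1, an epithelial splicing factor, from 0.583 to 4.99 FPKM, and Grhl3, a grainyhead factor of surface epithelium, from 2.13 to 9.21 FPKM. Rab25, a GTPase of epithelial recycling endosomes, went from 2.56 to 13.8 FPKM, Ap1m2, the epithelial sorting adaptor, from 0.854 to 9.48 FPKM, and Lsr, a protein of tricellular junctions, from 3.25 to 13.2 FPKM. The paired protease and inhibitor genes Prss8, Spint1 and Spint2 rose by 2.33, 1.69 and 1.03.

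The keratins, intermediate filament proteins of epithelial cells, did not move as 1 family. Of 11 kept keratin genes, 6 rose and 0 fell, against 4 rises in the Thy-1+ cells. Their median in the Thy-1- cells was 1.27, or 0.64 over all 19 without the limit. Krt7 (0.409 to 12.2 FPKM) and Krt18 (6.21 to 40.8 FPKM) are simple-epithelium keratins and stood at 133 and 711 FPKM in iPSCs. Krt17 (1.62 to 23.2 FPKM), Krt14 (7.10 to 19.2 FPKM) and Krt16 are keratins of stratified epithelium, and Krt17 and Krt14 were at 2.69 and 4.95 FPKM in iPSCs. Krt8, the partner of Krt18, was at 58.9 and 92.5 FPKM in D6T- and D9T-. Among 18 kept epidermal and surface-epithelium genes, 6 rose, 0 fell, 10 were above 0 and 8 below, with a median of 0.55, or 0.18 over all 25 without the limit. S100a14 (1.29 to 16.5 FPKM), Wfdc2 (26.4 to 128 FPKM) and Ly6d rose. Lower values were those of Krtdap at 42.5 and 24.5 FPKM, Sprr1b at 2.60 and 1.08 FPKM and Slurp1 at 109.8 and 102 FPKM. Aldh3a1, an aldehyde dehydrogenase of corneal epithelium, remained high at 561 and 682 FPKM in D6T- and D9T-.

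**Figure D3:**
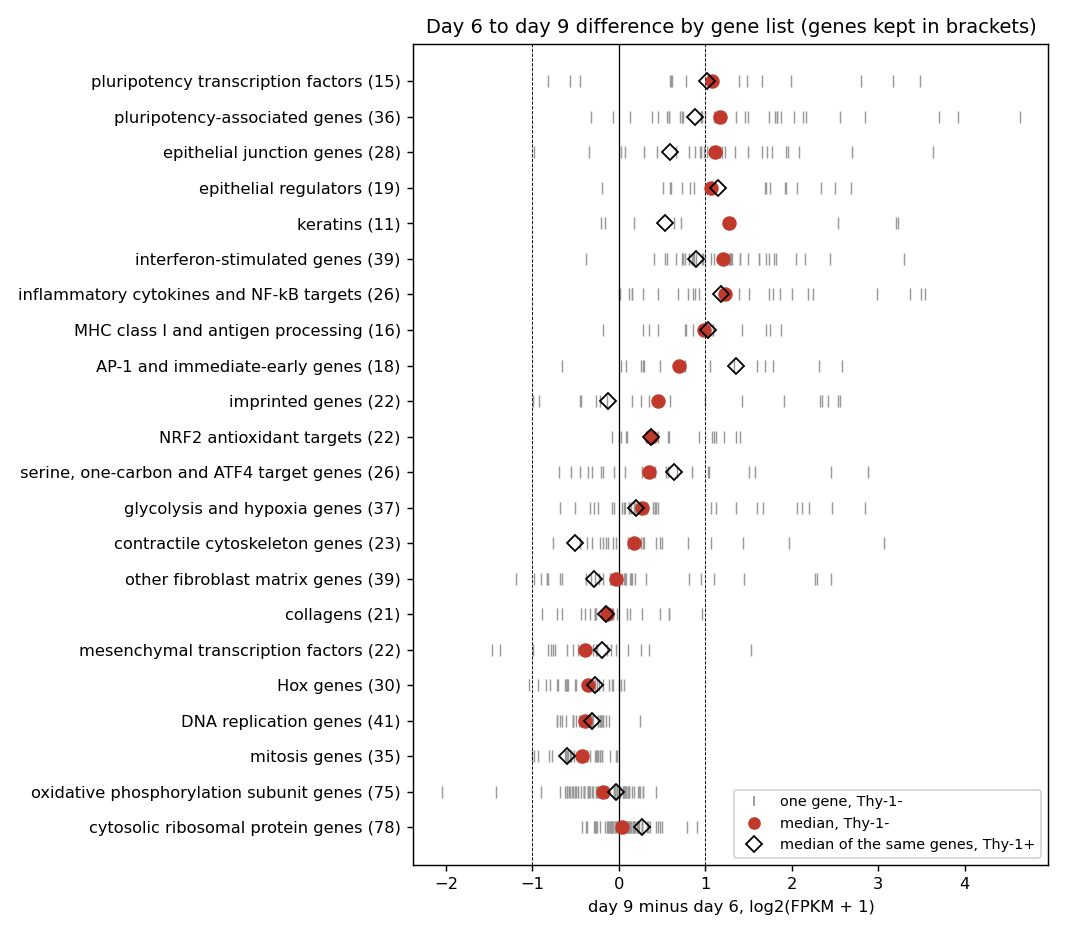
Differences between day 9 and day 6 on the log2(FPKM + 1) scale for 22 gene lists, with the number of kept genes in brackets. Each grey tick is 1 gene in the Thy-1- cells, the red circle their median, and the open diamond the median of the same genes in the Thy-1+ cells. Pluripotency, epithelial, interferon and inflammatory lists have medians near or above 1, and the replication, mitosis and Hox lists sit just under 0 with little spread.

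Outside the lists, most of the largest rises were of genes with lower levels in iPSCs than in D9T-. Of the 20 largest, 16 had a lower FPKM in iPSCs. That count uses D9T-, through which these genes were picked, and is given as a description. Klk1 (chromosome 7, 51480807 to 51484987, plus strand, mm9), tissue kallikrein, a serine protease that releases kinins, was listed at 0 in D0, went from 6.31 to 293 FPKM, reached 742 FPKM in D12S+ and was at 0.408 FPKM in iPSCs. Its intervals were 0 to 17.5 FPKM in D6T- and 15.5 to 571 FPKM in D9T- and thus overlapped. Tac2, a tachykinin precursor, went from 12.1 to 145 FPKM and was back at 25.9 FPKM in D12S+. Gpx2, an epithelial glutathione peroxidase, went from 27.96 to 192 FPKM, and Foxj1, the regulator of motile cilia, from 0.991 to 14.6 FPKM. Ndufa4l2, a mitochondrial protein gene induced by hypoxia, went from 5.20 to 58.5 FPKM, Cbr2, a carbonyl reductase, from 3.83 to 44.9 FPKM, and Srgn, the proteoglycan serglycin, from 5.54 to 43.3 FPKM. Acute-phase and innate genes were among them. Saa1 went from 1.17 to 20.5 FPKM, the lipopolysaccharide-binding protein gene Lbp from 2.84 to 30.4 FPKM, complement factor Cfb from 1.07 to 18.2 FPKM and the chitinase-like Chil1 from 0.172 to 14.5 FPKM. Ifitm1, an interferon-induced membrane protein gene also expressed in early germ cells, went from 16.3 to 223 FPKM. Others of these genes stand high in iPSCs: Folr1, a folate receptor, went from 0.356 to 17.2 FPKM, with 266 FPKM in iPSCs, and the homeobox gene Rhox6 was listed at 0 in D6T- and at 11.3 FPKM in D9T-, with 143 FPKM in iPSCs. Others were Gng13, Cyp2b23, Alox15, Cd164l2 and Gpr56, with differences of 2.91 to 4.31. All 20 were also at least 2-fold higher in D9T+ than in D6T+.

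**Figure D4:**
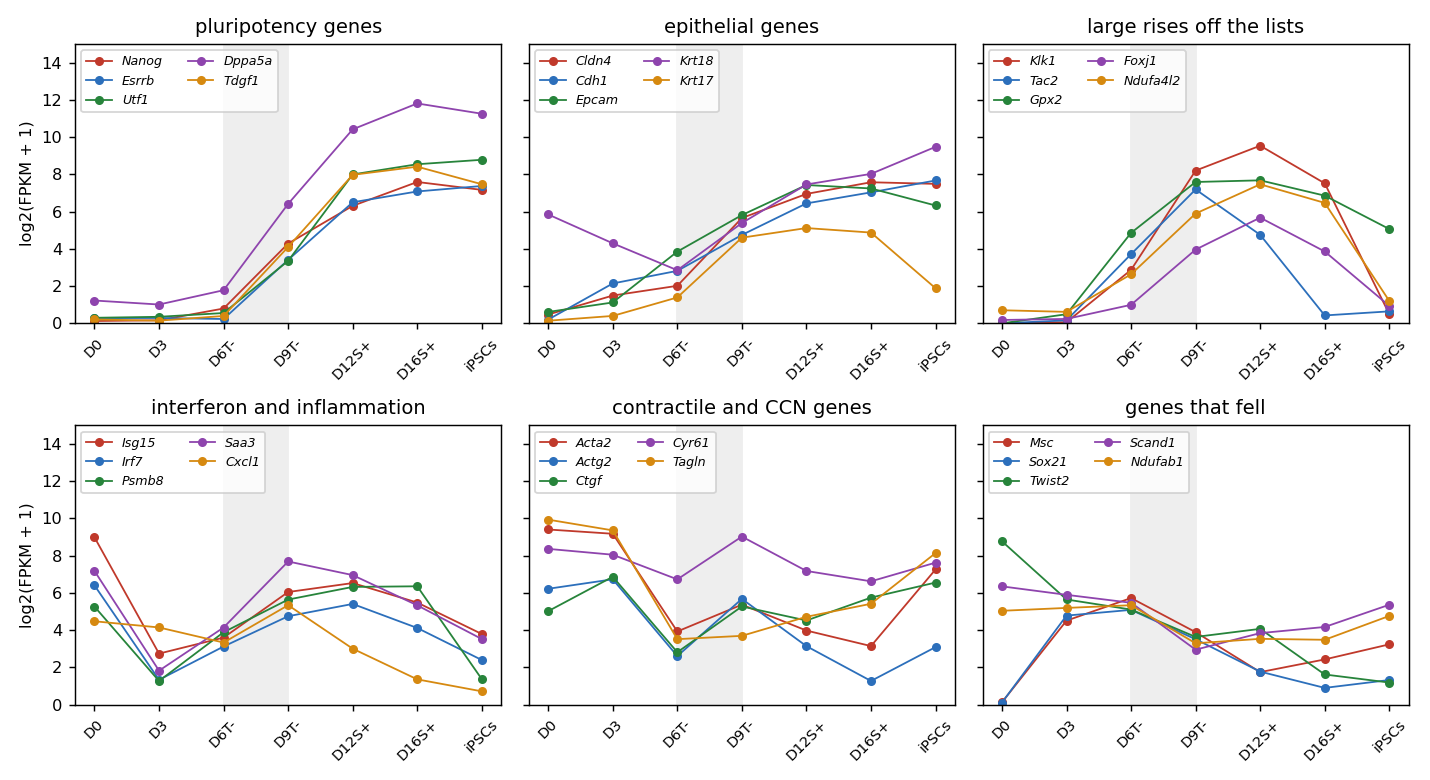
Levels of 30 genes along the successful route, from D0 on the left to iPSCs on the right of each panel, as log2(FPKM + 1) with 1 library per point. The shaded band spans D6T- to D9T-. Pluripotency genes leave the baseline in the band, Klk1 and Tac2 peak at or after its right edge and are low in iPSCs, Isg15 and Irf7 climb in it from a low in D3, and Acta2, Actg2 and Ctgf turn upwards in it after falling from D3.

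Most interferon-stimulated genes on the list rose. Type I interferons signal through a complex that holds STAT2 and IRF9 and binds interferon-stimulated response elements in the promoters of these genes. Of 39 kept genes of this list, 23 rose, 0 fell and 38 were above 0. The median was 1.20, against 0.89 in the Thy-1+ cells, where 17 rose. Isg15 (chromosome 4, 155573533 to 155574927, minus strand, mm9), a ubiquitin-like modifier, was at 11.1 and 64.9 FPKM in D6T- and D9T-, after 504 FPKM in D0 and 5.66 FPKM in D3. The regulators Irf7 (7.67 to 25.8 FPKM) and Irf1 (29.99 to 94.4 FPKM) rose, as they did in the Thy-1+ cells, where Isg15 was at 66.1 and 206 FPKM. Stat2 (8.50 to 17.7 FPKM) and Irf9 were higher by 0.98 and 0.73, short of 2-fold. Zbp1, a sensor of Z-form nucleic acid, went from 16.9 to 58.7 FPKM, Lgals3bp, a secreted lectin ligand, from 21.4 to 76.4 FPKM, and Rtp4 from 3.14 to 13.5 FPKM. Among antiviral effectors, Oas2, an RNA sensor that activates RNase L, rose by 2.05, Oasl2 went from 4.61 to 23.98 FPKM and Bst2, a tether of virus particles, from 163 to 399 FPKM. The GTPases of the interferon-gamma response rose too, with Irgm1 from 18.4 to 62.2 FPKM, Igtp from 21.4 to 62.2 FPKM and Gbp3 from 11.3 to 28.8 FPKM. Ifi27l2a had the largest difference, 3.29, and Ifit2 the lowest, -0.38. Of 16 genes of MHC class I presentation, 8 rose and 0 fell. Psmb8 and Psmb9, subunits of the immunoproteasome, went from 13.7 to 48.8 FPKM and from 8.25 to 29.2 FPKM, H2-K1, a classical class I heavy chain, from 67.7 to 137 FPKM, and its light chain B2m from 117 to 244 FPKM. Class I genes are close copies of each other, and removal of reads with several loci makes single values among them uncertain.

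Leukocyte markers were given beside these lists because leukocytes express many of their genes. Of 20 markers, 3 were kept, Laptm5 (9.83 to 33.2 FPKM), Cd68 (12.4 to 27.96 FPKM) and Cd14 (1.89 to 4.94 FPKM), and all 3 rose. The median difference of the 3 was 1.12, and that of all 20 without the limit was 0. The summed level of the 20 was 25.7 FPKM in D6T- and 67.4 FPKM in D9T-. Ptprc, the pan-leukocyte antigen CD45, was at 0.425 and 0.178 FPKM, Itgam at 0.511 and 0.352 FPKM, Emr1 was listed at 0 in both libraries, and 8 of the 20 markers were at 0 in both. Laptm5 and Cd68 were also at 40.5 and 40.02 FPKM in iPSCs. In the Thy-1+ cells the sum was 29.8 and 51.1 FPKM. The part of such cells in the interferon, class I and inflammatory differences was not tested.

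The core of the response element, a pair of GAAA motifs with any 2 bases between them, was searched in the same promoter windows on both strands, and 3 promoters that hold it are shown for genes that rose. It occurred in 3.49% of 27025 windows, in 2.87% of 9018 windows of kept genes, in 35 of 468 windows of risen genes (7.48%) and in 17 of 28 windows of the listed interferon-stimulated genes, a list that is partly known for this element. None of the 102 windows of fallen genes held it. The motifs were chosen with the differences known. Others were searched as well. The AP-1 site, TGA and TCA with any base between them, was in 11.1% of windows of risen genes, 4.88% of kept and 2.94% of fallen genes. It was also in 7 of the 28 windows of the interferon list. The E-box, CACGTG, was in 5.77% of windows of risen genes, 10.6% of kept and 6.86% of fallen genes. Capitals mark matches on either strand, overlapping ones joined, in GRCm38.p6. Isg15 is at chr4:156200847-156200936, minus strand, with 3 overlapping matches. Irgm1 is at chr11:48871401-48871490, minus strand, with 2, and Ifit1, which went from 0.672 to 2.59 FPKM, is at chr19:34640745-34640834, plus strand, with 2 separate matches.
Isg15 promoter: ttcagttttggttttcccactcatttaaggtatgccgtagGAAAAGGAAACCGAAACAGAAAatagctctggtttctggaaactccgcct
Irgm1 promoter: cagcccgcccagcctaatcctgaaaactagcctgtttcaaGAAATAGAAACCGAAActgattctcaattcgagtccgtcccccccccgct
Ifit1 promoter: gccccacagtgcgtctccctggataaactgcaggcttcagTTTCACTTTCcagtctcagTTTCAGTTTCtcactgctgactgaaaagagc

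Of 26 kept inflammatory cytokine genes and targets of the transcription factor NF-kB, 14 rose and 0 fell, with a median of 1.23, or 0.83 over all 34 without the 1 FPKM limit. The inhibitors that NF-kB induces to switch itself off, Nfkbia and Tnfaip3, went from 33.7 to 126 FPKM and from 1.34 to 23.3 FPKM. The neutrophil-attracting chemokines Cxcl1 and Cxcl2 went from 9.05 to 39.4 FPKM and from 0.537 to 4.31 FPKM, and the monocyte-attracting Ccl2 and Ccl8 from 112 to 259.6 FPKM and from 11.7 to 59.5 FPKM. Il6, the cytokine that drives the acute-phase response, went from 0.503 to 5.83 FPKM, and the acute-phase genes Saa3, Lcn2 and C3 from 16.6 to 204 FPKM, from 0.336 to 14.03 FPKM and from 2.28 to 25.1 FPKM. Ptgs2, the inducible cyclooxygenase, rose by 1.40, Cxcl10, a chemokine of the interferon response, went from 1.24 to 6.46 FPKM, and Il1rn, the antagonist of the IL-1 receptor, from 1.61 to 6.44 FPKM. Cxcl1, Il6 and Saa3 were lower than in the Thy-1+ cells of the same day, and Lcn2 and Ccl8 were not. Cxcl1 was at 205 FPKM in D9T+, Saa3 at 663 FPKM and Il6 at 23.05 FPKM, whereas Lcn2 was at 11.4 FPKM and Ccl8 at 33.4 FPKM. The stroma-derived chemokine gene Cxcl12 and the alarmin gene Il33 stayed at 1.59 and 1.81 FPKM and at 1.65 and 1.65 FPKM. In the Thy-1+ cells 14 of the 26 kept genes rose, with a median of 1.19.

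The core of the NF-kB site, GGG and TTTCC with any 2 bases between them, was found in 1.62% of all promoter windows, in 1.65% of those of kept genes, in 18 of 468 of risen genes (3.85%), in 0 of 102 of fallen genes and in 7 of 21 of the list, which was in part defined by known targets. The windows of Cxcl1 (chr5:90891116-90891205, plus strand), with 2 matches, and of Tnfaip3 (chr10:19015373-19015462, minus strand), with 1, are shown in GRCm38.p6 with matches on either strand in capitals.
Cxcl1 promoter: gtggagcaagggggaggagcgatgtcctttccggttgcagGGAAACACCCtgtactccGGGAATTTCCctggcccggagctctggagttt
Tnfaip3 promoter: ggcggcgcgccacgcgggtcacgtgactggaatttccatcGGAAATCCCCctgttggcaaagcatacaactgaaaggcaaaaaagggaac

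Immediate-early genes, which are transcribed within minutes of a growth or stress signal, were higher in part. Of 18 kept genes, 7 rose and 0 fell. Nr4a1, an orphan nuclear receptor, went from 42.99 to 262 FPKM, Atf3, a stress-induced repressor, from 8.30 to 45.2 FPKM, and Egr3, a zinc finger factor, from 4.39 to 17.6 FPKM. Fosl2, a FOS family member, went from 9.91 to 32.1 FPKM, and Klf6 from 11.8 to 40.2 FPKM. The AP-1 genes Fos, Fosb and Junb moved little, with Fos at 141 and 149.6 FPKM, Fosb at 26.8 and 32.2 FPKM and Junb at 139 and 169 FPKM. Jund was lower, at 72.1 and 45.3 FPKM. In the Thy-1+ cells, 14 of the same genes rose, with a median of 1.36 against 0.69 in the Thy-1- cells. Of 17 feedback genes of the MAP kinase pathway, Dusp5 (13.4 to 80.8 FPKM), Ereg and Hbegf rose, and Etv4, an ETS factor downstream of FGF signalling, fell from 26.4 to 8.80 FPKM.

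Fibroblast matrix genes, already far below D0 on day 6, had median differences near 0, and some outside the collagens rose. Of 21 kept collagen genes, 0 rose and 0 fell, with a median of -0.14. Col1a1 and Col1a2, the chains of type I collagen, were at 98.2 and 95.2 FPKM in D6T- and at 81.1 and 101 FPKM in D9T-, after 3453 and 1738 FPKM in D0. Both were at 752 and 458 FPKM in D9T+. Of 39 other matrix genes, 5 rose and 1 fell, against 6.01% and 1.35% of all kept genes, and the median was -0.04. Among the genes that rose were Ctgf (6.01 to 37.5 FPKM) and Cyr61 (105 to 518 FPKM), secreted CCN proteins that respond to serum, stretch and YAP, as well as Thbs1 (35.96 to 99.5 FPKM) and Cthrc1 (0.552 to 6.47 FPKM). Loxl1, an elastin crosslinking enzyme, fell from 11.4 to 4.43 FPKM. Fibronectin, Fn1, was at 205 and 396 FPKM in D6T- and D9T-, a difference of 0.95.

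Mesenchymal transcription factors were mostly lower. Of 22 kept, 18 were below 0, 2 fell and 1 rose, with a median of -0.40. Twist2 fell from 33.3 to 11.4 FPKM and Hic1 from 4.08 to 0.952 FPKM, and Twist1, at 19.7 and 9.40 FPKM, was just short of 2-fold. Twist1 and Twist2 are basic helix-loop-helix factors of mesoderm and of epithelial-to-mesenchymal transition. Zeb1 and Zeb2, repressors of E-cadherin, were at 4.53 and 4.21 FPKM and at 3.10 and 3.90 FPKM, and Snai1, another such repressor, at 8.82 and 4.70 FPKM. Nfatc4 rose from 4.85 to 15.9 FPKM. Foxd1, a forkhead factor of stromal progenitors that was at 0.258 FPKM in D0, was at 80.2 and 72.6 FPKM in D6T- and D9T- and rose in the Thy-1+ cells from 12.4 to 54.8 FPKM. Of 30 kept Hox genes, which keep the positional identity of the fibroblasts, 28 were below 0, Hoxd13 fell from 2.56 to 0.739 FPKM, and the median was -0.36.

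Smooth muscle and cytoskeleton genes, which respond to serum response factor and its actin-sensing partner MRTF, had dropped steeply by day 6, and some turned upwards. Of 23 kept genes, 4 rose and 0 fell. Actg2 (chromosome 6, 83462899 to 83486259, minus strand, mm9), enteric smooth muscle actin, was at 105 FPKM in D3 and went from 5.08 to 50.02 FPKM. Acta2, vascular smooth muscle actin, was at 575 FPKM in D3 and went from 14.2 to 40.2 FPKM. Csrp1, a LIM protein, went from 25.4 to 102 FPKM and Cnn2, a calponin, from 32.1 to 68.2 FPKM. Others stayed low: Tagln was at 10.4 and 11.9 FPKM in D6T- and D9T- after 652 FPKM in D3, and Myl9 at 5.21 and 7.63 FPKM in D6T- and D9T- after 295 FPKM. The median of the list was 0.18 in the Thy-1- and -0.51 in the Thy-1+ cells, where Acta2 went from 166 to 92.2 FPKM and Tagln from 208 to 87.9 FPKM. By D12S+, Actg2 and Acta2 were back at 7.79 and 14.7 FPKM. Of the 10 fibroblast markers, 6 were higher on day 9, Thy1 among them, 8 were above 1 FPKM in D6T- and 9 in D9T-, and their sum went from 439 to 380.0 FPKM, against 2763 FPKM in D6T+ and 2280 FPKM in D9T+. Their part in the rise of the actin genes was not tested.

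A CArG box, the element that serum response factor binds, was found in 1.57% of all windows, in 1.36% of those of kept genes, in 11 of 468 of risen genes (2.35%) and in 3 of 19 of the contractile list, those of Cnn2, Myl9 and Vcl. The promoters of Cnn2, which rose, and Myl9, which did not reach 2-fold, are shown. Cnn2 lies at chr10:79988504-79988593 and Myl9 at chr2:156775263-156775352 of GRCm38.p6, both on the plus strand, with the box in capitals, 56 and 161 bases before the gene start. Both hold the box, so the pair shows only the letters around it.
Cnn2 promoter: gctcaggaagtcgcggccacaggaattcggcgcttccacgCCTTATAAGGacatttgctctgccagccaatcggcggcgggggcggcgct
Myl9 promoter: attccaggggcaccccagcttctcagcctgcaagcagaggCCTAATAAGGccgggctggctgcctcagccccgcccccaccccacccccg

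Several imprinted genes, expressed from 1 parental allele, rose. Of 22 kept, 7 rose and 0 fell, with a median of 0.46 against -0.13 in the Thy-1+ cells. The maternally expressed noncoding RNAs of the Dlk1-Dio3 region rose together, Meg3 from 24.8 to 137 FPKM, Rian from 8.47 to 46.5 FPKM and Mirg from 2.33 to 18.3 FPKM. So did the neighbours H19, a noncoding RNA (27.03 to 142 FPKM), and Igf2, a growth factor (5.13 to 21.99 FPKM). In the Thy-1+ cells H19 was at 199 and 169 FPKM and Igf2 at 27.4 and 25.3 FPKM, so that the Thy-1- cells approached on day 9 levels that the Thy-1+ cells held on both days. The paternally expressed Peg10 and Peg3 went from 3.32 to 24.3 FPKM and from 4.99 to 15.1 FPKM. Ndn, Mest and Slc38a4 were lower without reaching 2-fold, with Ndn at 30.8 and 15.00 FPKM. Among other genes of the IGF axis, Igfbp2, a secreted IGF carrier, went from 8.75 to 128 FPKM, Igfbp5 rose from 7.71 to 16.8 FPKM, and Hmga2, an architectural chromatin protein gene, was at 13.7 and 6.39 FPKM.

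Of 37 kept genes of glycolysis and the response to low oxygen, 10 rose and 0 fell, with a median of 0.27. The glucose transporter Slc2a1 went from 39.1 to 183 FPKM, the lactate exporter Slc16a3 from 15.3 to 50.6 FPKM, the oxygen sensor Egln3 from 6.79 to 32.7 FPKM, Ndrg1 from 6.40 to 29.9 FPKM and the mitophagy gene Bnip3 from 3.93 to 11.6 FPKM. Vegfa, the endothelial growth factor, rose from 15.4 to 34.6 FPKM, Car9, a carbonic anhydrase and classical hypoxia marker, from 0.0487 to 2.17 FPKM, and the aldolase isoform Aldoc from 8.65 to 52.5 FPKM. Gapdh was at 934 and 788 FPKM, Ldha at 903 and 858 FPKM and Pgk1 at 92.4 and 96.9 FPKM. These transporters and Egln3 went on to higher values in D12S+, Slc2a1 to 835 FPKM and Egln3 to 138 FPKM.

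Of 22 antioxidant targets of NRF2, 6 rose and 21 were above 0, among them Hmox1, heme oxygenase (129 to 302 FPKM), Slc7a11, the cystine importer (2.72 to 8.53 FPKM), and Gsta3. Of 26 genes of serine and one-carbon metabolism and targets of the stress factor ATF4, 6 rose and 0 fell. Chac1 and Trib3, ATF4 targets, went from 2.32 to 23.4 FPKM and from 2.62 to 18.9 FPKM, and Atf4 itself was at 167 and 301 FPKM in D6T- and D9T-. The serine synthesis genes Phgdh, Psat1 and Psph differed by -0.56, 0.27 and 0.34. None of 15 genes of the unfolded protein response passed 2-fold, with Xbp1 nearest, at 18.2 and 37.2 FPKM. Of 21 lysosomal genes, 20 were above 0, and only Gpnmb rose, a share near the 6.01% of all kept genes. Of 24 cholesterol synthesis and control genes, 17 were below 0, 1 fell and 0 rose, with a median of -0.28.

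The cell cycle genes shifted together and by little. Of 41 DNA replication genes, 40 were below 0, 0 rose and 0 fell, with a median of -0.39 and a range of -0.72 to 0.25. Of 35 mitosis genes, 35 were below 0, and Plk1, a mitotic kinase, fell from 74.8 to 36.7 FPKM, with a median of -0.43. Ccna2, cyclin A, was at 24.7 and 12.1 FPKM and Cdt1, a licensing factor, at 51.2 and 30.7 FPKM. The exception among the replication genes was E2f1, at 25.7 and 30.7 FPKM. In the Thy-1+ cells the medians were -0.32 and -0.61. Of 25 CDK inhibitor, D cyclin and p53 target genes, 0 fell and 2 rose, a share near the 6.01% of all kept genes. The 2 were the growth arrest gene Gadd45a (10.8 to 32.4 FPKM) and the pro-apoptotic Pmaip1, or Noxa (1.22 to 3.76 FPKM).

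Chromatin genes were mostly within 2-fold. Among 9 genes of DNA methylation and demethylation, Tet1 rose from 0.520 to 2.41 FPKM and Dnmt3l from 0.456 to 2.30 FPKM, Dnmt3b was at 2.03 and 4.92 FPKM, and the glycosylase gene Tdg fell from 8.64 to 3.22 FPKM. The maintenance genes Dnmt1 and Uhrf1 were at 108 and 79.4 FPKM and at 86.4 and 69.1 FPKM. Among 26 Polycomb and histone demethylase genes, 2 rose, a share near the 6.01% of all kept genes. They were Jarid2 (18.8 to 45.05 FPKM), a subunit of PRC2, and Cbx7 (3.07 to 8.48 FPKM), a PRC1 subunit of embryonic stem cells. Among 15 genes of the histone variant H3.3 and histone chaperones, H3f3a was at 108 and 142 FPKM, and Asf1b, the chaperone isoform of dividing cells, fell from 32.00 to 14.96 FPKM.

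Signalling genes beyond those named were uneven. Of 34 genes of the TGF-beta, BMP and Nodal pathways, 9 rose and 0 fell, and besides the Nodal and CCN genes these included Tgfbi and Skil. Tgfbi, a matrix protein gene named for its induction by TGF-beta, went from 5.17 to 26.8 FPKM, whereas the ligand gene Tgfb1 was at 4.89 and 3.08 FPKM. Of 23 Wnt and FGF genes, 5 rose, with a median of 0.45, or 0.16 over all 47 without the limit. The Wnt inhibitors Notum (4.46 to 18.2 FPKM), Nkd1 (0.514 to 3.22 FPKM) and Sfrp1 (5.09 to 15.4 FPKM) were among them. The culture held the GSK3 inhibitor on both days, and its part in these differences was not tested. Fgfbp1, an FGF carrier, went from 44.8 to 179 FPKM. Of 15 retinoid genes 0 rose and 0 fell. Of 24 early lineage factors 5 were kept, with a median of 0.32, or 0.023 over all 24 without the limit. Of the 5, Hand1 and Sox1 rose to 1.88 and 2.81 FPKM. Of 24 surface markers, Alpl and Prom1 rose, a share near the 6.01% of all kept genes. Cd44 was at 66.5 and 62.03 FPKM and Icam1 at 15.7 and 26.1 FPKM.

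The genes that fell formed no single family among the lists. Scand1 was among the 20 largest falls off the lists, once small RNA genes and unnamed models were set aside, and fell from 43.2 to 6.71 FPKM. Msc (musculin), a repressor of muscle genes, was at 0.0881 FPKM in D0, had reached 21.7 FPKM by D3 and fell from 51.7 to 13.8 FPKM, and Sox21, a neural SOX factor, went from 0.0753 to 26.4 FPKM and fell from 32.9 to 10.4 FPKM. Nefl, a neurofilament, fell from 97.98 to 30.1 FPKM. Of 10 neuronal markers 4 were kept, of which 1 fell, Tubb3 from 94.8 to 45.4 FPKM, 1 was above 0, and 1 rose in the Thy-1+ cells. The median of the 4 was -0.69, and that of all 10 was 0.036. Cdh2, N-cadherin of mesenchymal and neural cells, fell from 10.3 to 3.39 FPKM. Hist1h1c, a linker histone, fell from 68.1 to 24.6 FPKM, and Hnrnpa0, an RNA-binding protein gene, from 116 to 41.4 FPKM. Others of the 20 largest falls were Prr7, Tmem238, Rprm, Zfp771, Pgp, Cdo1, Dcaf12l1, Ccdc85b, Spata5l1, Gchfr and Coa6, with Raver1-fdx1l, a readthrough of 2 genes. The median GC content of the 19 of the 20 with a known transcript was 58.3%, against 50.9% over all kept genes. The part of GC content in the falls was not tested further. In the Thy-1+ cells 18 of the 20 were below 0 and 5 fell.

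Genes of the mitochondrial respiratory chain were mostly lower by little. Of 75 kept subunit genes, 54 were below 0, 2 fell and 0 rose, against 1.35% fallen and 6.01% risen among all kept genes. The median was -0.19, against -0.036 in the Thy-1+ cells. Their summed level was 19066 FPKM in D6T- and 15986 FPKM in D9T-. Ndufab1, the acyl carrier protein of complex I, fell from 39.3 to 8.78 FPKM, and Cox5a, a subunit of cytochrome c oxidase, from 155 to 57.1 FPKM. They remained at 10.5 and 74.2 FPKM in D12S+ and were at 26.1 and 243 FPKM in iPSCs. None of 78 cytosolic ribosomal protein genes passed 2-fold, and their median was 0.03. Mcpt8, a mast cell protease gene that was at 1201 FPKM in D0, fell from 11.97 to 3.64 FPKM. Of 6 kept skeletal muscle markers, Acta1 (10.8 to 3.17 FPKM) and Myh3 fell and Actc1 rose. Of 10 endothelial markers 4 were kept, of which Esam and Cldn5 rose, to 5.24 and 2.37 FPKM. The median of the 4 was 0.92, and that of all 10 without the limit was 0.28.

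The Thy-1+ cells of the same days served to show which differences were shared by both fractions. Between D6T+ and D9T+, 12090 genes were kept, of which 698 were at least 2-fold higher on day 9 (5.77%) and 195 lower (1.61%). No library was common to both comparisons, and the labels do not say whether both fractions of a day came from 1 dish. Of the 717 genes that rose in the Thy-1- cells, 405 also rose in the Thy-1+ cells, which is 56.5% of the former and 58% of the latter list. Of the 161 that fell, 37 fell in both, 23% and 19%. The direction without a threshold was shared more widely, since 680 risen genes (94.8%) were above 0 in the Thy-1+ cells, against 46.5% of all kept genes. Of the fallen genes, 136 (84.5%) were below 0 in the Thy-1+ cells, against 53.3% of all kept genes. Opposite changes of at least 2-fold were seen for 4 genes that rose in the Thy-1- cells, Gm15772, Mir8112, Pisd-ps3 and Snora65, which are pseudogenes or small RNA genes and are named after their values were seen, and for 0 that fell.

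The genes with the widest gap between the fractions, among those of at least 10 FPKM in 1 of the 4 libraries, are given with both differences. Where the difference was larger in the Thy-1- cells, these were smooth muscle actin genes (Actg2, with differences of 3.07 in Thy-1- and 0.34 in Thy-1+ cells, and Acta2, with 1.44 and -0.84), imprinted genes (H19, 2.35 and -0.24, and Igf2, 1.91 and -0.11), Krt18 (2.53 and 0.27), the pluripotency gene Dppa5a (4.64 and 2.42), the phosphatase gene Dusp9 (1.57 and -0.81) and the chemokine gene Ccl8 (2.25 and -0.46). Snai2, a repressor of epithelial genes, belongs to them by its fall in the Thy-1+ cells from 10.1 to 1.07 FPKM, since it was under 1 FPKM in both Thy-1- libraries, and Pisd-ps3, a pseudogene, completes the 10. Where it was larger in the Thy-1+ cells, these were the orphan receptor genes Nr4a3 (1.94 and 4.29) and Nr4a2 (0.30 and 2.62), Fosb (0.26 and 2.63), the acute-phase gene Hp, haptoglobin (1.91 and 4.03), the interferon-induced GTPase gene Tgtp1 (-0.16 and 3.15), the class I gene H2-L, Foxd1 (-0.14 and 2.06) and the doublesex-related Dmrtc2 (-0.04 and 2.04), beside Raver1-fdx1l and the pseudogene Pisd-ps1. Foxd1 and Dmrtc2 were already high in D6T-, at 80.2 and 69.1 FPKM, and the Thy-1+ cells stood at 54.8 and 44.7 FPKM on day 9. From the 10% poorest to the 10% richest in GC, the median difference of kept genes went from 0.045 to -0.11 in the Thy-1- cells. In the Thy-1+ cells it went from -0.12 to 0.080. Among genes with a known transcript, the median GC content was 49.4% where Thy-1- differences were larger and 56.0% where Thy-1+ differences were larger. The part of GC content in these gaps was not tested. None of these gaps has a replicate behind it.

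**Figure D5:**
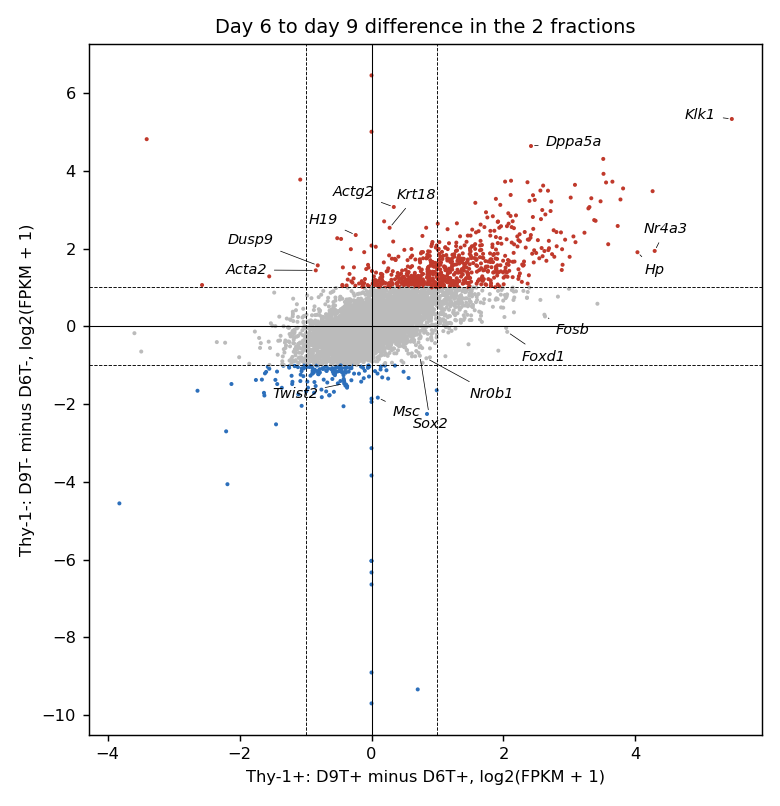
Day 9 minus day 6 on the log2(FPKM + 1) scale in Thy-1+ cells (horizontal axis) and Thy-1- cells (vertical axis) for the 11923 kept genes. Red and blue points rose or fell at least 2-fold in the Thy-1- cells, and dashed lines mark 2-fold. Most red points lie right of 0, with Actg2, Acta2, Dusp9 and H19 near or left of it, while Fosb and Foxd1 lie far to the right near a height of 0 and Nr4a3 and Hp farther right, above the 2-fold line.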

How the data were processed

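Polyadenylated RNA of 12 libraries, 1 per condition, was extracted with TRIzol and an RNeasy column and made into libraries with a stranded kit per the labels. The study's methods name another kit of the same maker, so reads of antisense or overlapping genes may not have been told apart. The authors aligned the reads to mm9 with STAR, removed reads with several mismatches or more than 1 locus, and computed gene FPKM with cuffdiff. Tool versions and the gene annotation are not given in the sources used here. The deposited FPKM table of 24098 genes holds an FPKM and the bounds of its interval per library, and its 12 columns of fit status were not used. FPKM are not counts, and no count test was run. Differences were taken on log2(FPKM + 1) over genes of at least 1 FPKM in either library, with 2-fold as the limit, and no p-value was computed because each condition had 1 library. Relative depth came from the smallest steps between values up to 0.5 FPKM. The comparison, the gene lists and the motifs were chosen with earlier results of these data known. Genes named are members of these lists, the 20 largest rises and falls among other genes of at least 10 FPKM and a locus of at least 300 bases without small RNA or unnamed symbols, and the 10 widest gaps between fractions in each direction. Other genes named are said to be so where they appear, and a few genes that these rules name are not reported here. Gene positions are those of GENCODE in mm9, used where they overlap the locus in the table, GC content is that of the longest coding transcript, and promoters are from RefSeq (GRCm38.p6). Alternatives were a pseudocount of 0.1, a minimum of 5 FPKM or none, a 4-fold limit, 2 scalings, leaving out short loci, GC centring and leaving out genes listed at 0, the last pair chosen after seeing the data. Calculations used Python 3.11.15, pandas 2.3.3, numpy 2.4.6 and scipy 1.17.1 and were tested on simulated data.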

Additional observations from a re-analysis of the deposited data

Results flagged for a closer look

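Gaps are given here as the day 9 minus day 6 difference of the Thy-1- cells less that of the Thy-1+ cells, where both passed 0.5 in opposite directions or a list's medians had opposite signs. With 1 library per condition, none of these gaps was tested. The contractile list had a gap of 0.69 between its medians (0.18 and -0.51), and Acta2 a gap of 2.28 (1.44 and -0.84). The imprinted list had a gap of 0.58 (0.46 and -0.13). Sox2 was lower on day 9 in the Thy-1- and higher in the Thy-1+ cells, with a gap of -1.49 (-0.75 and 0.73) on reads that may be retroviral, and Nr0b1, an orphan receptor gene of the pluripotency network, had a gap of -1.65 (-0.82 and 0.83). The chemokine gene Ccl7 had a gap of 1.48 (0.89 and -0.60), the epidermal gene Dmkn of 1.64 (0.91 and -0.73) and the phosphatase gene Dusp9 of 2.38 (1.57 and -0.81). Ndufs5, a complex I subunit gene, had a gap of -1.45 (-0.57 and 0.89). Among pseudogenes and readthrough models, the gap was -2.55 for Pisd-ps1 (-0.62 and 1.92), 3.63 for Pisd-ps3 (1.06 and -2.57) and -3.09 for Raver1-fdx1l (-2.25 and 0.84), genes whose reads may be shared with copies or with the genes they span.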

How the results depend on the processing

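Most counts moved by less than 1.5 times: 32 of 42 under other pseudocounts, limits and scalings, and 8 of 8 under GC centring and removal of zeros, chosen after seeing the data. After centring on 10 groups of GC content, 682 genes rose and 126 fell, and without genes listed at 0 700 rose and 146 fell. With a 4-fold limit, 136 genes were higher and 16 lower in D9T-, 144 higher and 16 lower in D9T+, and 70 higher and 3 lower in both. With a pseudocount of 0.1, where low genes weigh more, 335 genes were lower in D9T-, 409 in D9T+ and 100 in both. With a minimum of 5 FPKM, 260 genes were higher in both. The share of rises among genes past 2-fold was 81.7%, 81.4% after scaling to the same total and 84.5% after scaling by the median of ratios, which moved the median of all genes by less than 0.1. The position of D6T- among genes gained was 27.0% with genes 2-fold apart between D0 and iPSCs, against 14.9%, and that of D9T- 35.7%, against 34.6%, so that the step between them shrank, and the other 27 positions tried moved by less than 10 percentage points. Of 263 list medians, 29 moved by more than 0.25, among them those of the pluripotency factors (1.08, and 0.71 without a filter), keratins (1.27 and 0.64) and inflammatory genes (1.23 and 0.83), and that of the neuronal markers was 0.036 without a filter, against -0.69. The cause was not tested for these changes. No paired analysis was possible because each condition had 1 library, and for the same reason no library could be left out. Absolute depth is unknown, so no counting interval can be given.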
